A study of Rattus norvegicus with 7 samples.

Results

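The miR-23, miR-24 and miR-27 clusters were followed in liver RNA from rats fed potassium perfluorooctanesulfonate (PFOS), a persistent fluorinated surfactant, and from rats on a control diet. Members were chosen by name on the array, as rno-miR-23a, rno-miR-23b, rno-miR-24, rno-miR-27a and rno-miR-27b (the prefix marks rat and is left off from here) with their star arms, the other and usually scarcer strand of each hairpin. This gave 11 members, 5 main arms and 6 star arms, of 677 rat miRNAs on the array. The PFOS group was 4 adult male Sprague-Dawley rats given PFOS at 50 mg per kg of diet for 28 days, and the Control group was 3 such rats on the diet without PFOS for as long. Each array carried Cy3-labelled total RNA from the liver of 1 rat, and the submitters had removed a further control array at quality control. The series as titled asked how PFOS in the diet bears on hepatic miRNAs and thyroid hormone homeostasis, and the comparison here is whether the paired clusters differed with PFOS, and whether the b cluster did so differently from the a cluster.

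Each cluster is transcribed as 1 precursor RNA that holds a miR-23, a miR-27 and a miR-24 hairpin in that order, and each hairpin is then cut out and processed by itself. The miR-27 arms are known from mouse liver and from adipocytes as regulators of lipid metabolism genes, Pparg among them, and the miR-23b cluster is known from fetal mouse liver as a repressor of Smad genes and of bile duct genes. The miR-24 arm is known as a regulator of cell cycle genes, and the miR-23 and miR-27 arms also act in blood vessel endothelium.

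The mature sequences show how little the paralogs of the clusters differ, so the main arms are given from RefSeq (GRCr8) with the seed, bases 2 to 8, in capitals. A sequence was matched for 10 of the 11 members.
miR-23b: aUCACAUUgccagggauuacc
miR-23a: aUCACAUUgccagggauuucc
miR-27b: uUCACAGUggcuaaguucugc
miR-27a: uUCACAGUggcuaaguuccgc
miR-24: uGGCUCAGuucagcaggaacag
Counted from 1 at the 5′ end, miR-23b and miR-23a differed at 1 of 21 bases (A19U), and miR-27b and miR-27a at 1 of 21 bases (U19C). Both substitutions lie outside the seed, so the paralogs share it. Among mature rat miRNAs of 693 distinct names in the RefSeq table, the seed UCACAUU occurred only in miR-23a and miR-23b and the seed UCACAGU only in miR-27a and miR-27b. The seeds of miR-23b and miR-27b differed from each other at 1 base (U7G). Since the paralogs differ by 1 base, signal of one on the probe of the other was not tested, and such signal would draw the readings of a pair together.

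The b cluster lies on the minus strand of chromosome 17 in GRCr8, with miR-23b at chr17:1819405-1819425, miR-27b at chr17:1819163-1819183 and a first copy of miR-24 at chr17:1818672-1818693. Its main arms span 754 bases, and in the RefSeq gene table this stretch overlaps the genes Aopep and Fancc. It also overlaps a further miRNA gene, Mir3074, and miR-3074 was detected on 0 of 7 arrays. The a cluster lies on the minus strand of chromosome 19, with miR-23a at chr19:40859778-40859798, miR-27a at chr19:40859614-40859634 and the other copy of miR-24 at chr19:40859481-40859502. It spans 318 bases, overlaps no gene other than its own miRNA genes and has Zswim4, Nanos3 and Brme1 as its nearest protein-coding genes. Mature miR-24 is identical from both clusters, so its signal is the sum of both. The star arms of the copies differ in sequence, so they are given to show what could tell the copies apart.
miR-24-1*: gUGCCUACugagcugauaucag
miR-24-2*: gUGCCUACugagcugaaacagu

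All 5 main arms were detected on all 7 arrays, where a miRNA counted as detected if over 50% of the spots of at least 1 of its probes were well above background. They belonged to the 175 miRNAs that entered the tests, for which detection in 3 PFOS livers or in all 3 Control livers was required. Each main arm was read by 2 probes with 10 spots each, and the brighter probe gave 59.5% to 72.2% of a member's signal. Spots of that probe on 1 array had a median coefficient of variation of 6.39%. It was highest on PFOS replicate 3, at 28.0% for miR-23a, 20.03% for miR-24 and 15.0% for miR-27b, while miR-23b had 6.39% and miR-27a 3.04% there. No spot was saturated. Signals were scaled between arrays and normalised by cyclic loess, and are given in arbitrary units that serve to compare arrays for 1 miRNA, not 1 miRNA with another.

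miR-23b, the first arm of the b cluster, had normalised signals of 1090, 1161, 1093 and 1129 on the 4 PFOS arrays, against 1516, 1432 and 1335 on the 3 Control arrays. Every PFOS liver lay below every Control liver, and the PFOS values were close together. The means were 1118 ± 33.6 (SD, n = 4) in PFOS livers and 1428 ± 90.3 (SD, n = 3) in Control livers. The log2 fold change of PFOS over Control was -0.35 (SE 0.073, 95% interval -0.53 to -0.17). That is 21.6% less signal in PFOS livers, with an interval of 11.4% to 30.6%. It had the 2nd smallest p of the 175 tested miRNAs but did not pass over all of them (limma adjusted p = 0.126).

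miR-27b, its partner in the same precursor, had 565, 643, 584 and 608 on the PFOS arrays, against 825, 810 and 661 on the Control arrays. The groups again did not overlap, though Control replicate 3 came close to the highest PFOS array. The means were 600.0 ± 33.5 (SD, n = 4) in PFOS livers and 765 ± 90.9 (SD, n = 3) in Control livers. The log2 fold change was -0.35 (SE 0.10, 95% interval -0.59 to -0.096, limma adjusted p = 0.144).

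miR-24, which both clusters make, had 640, 797, 655 and 768 on the PFOS arrays, against 876, 800 and 812 on the Control arrays. The groups did not overlap, but the highest PFOS array and the lowest Control array were nearly equal. The means were 715 ± 79.2 (SD, n = 4) in PFOS livers and 830 ± 41.1 (SD, n = 3) in Control livers, and the log2 fold change was -0.22 (SE 0.11, 95% interval -0.47 to 0.034, limma adjusted p = 0.354).

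miR-23a, the first arm of the a cluster, had 725, 920, 734 and 825 on the PFOS arrays, against 783, 797 and 904 on the Control arrays. The groups overlapped widely, and the highest array of all was a PFOS array. The log2 fold change was -0.051 (SE 0.11, 95% interval -0.32 to 0.22, limma adjusted p = 0.935).

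miR-27a, the next arm of the a cluster, had 334, 453, 432 and 423 on the PFOS arrays, against 415, 443 and 462 on the Control arrays. Only PFOS replicate 1 stood below the Control range. The log2 fold change was -0.11 (SE 0.12, 95% interval -0.40 to 0.18, limma adjusted p = 0.707). The interval of miR-27a held the values of miR-23b and miR-27b, while that of miR-23a ended at -0.32, just short of both.

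**Figure D1:**
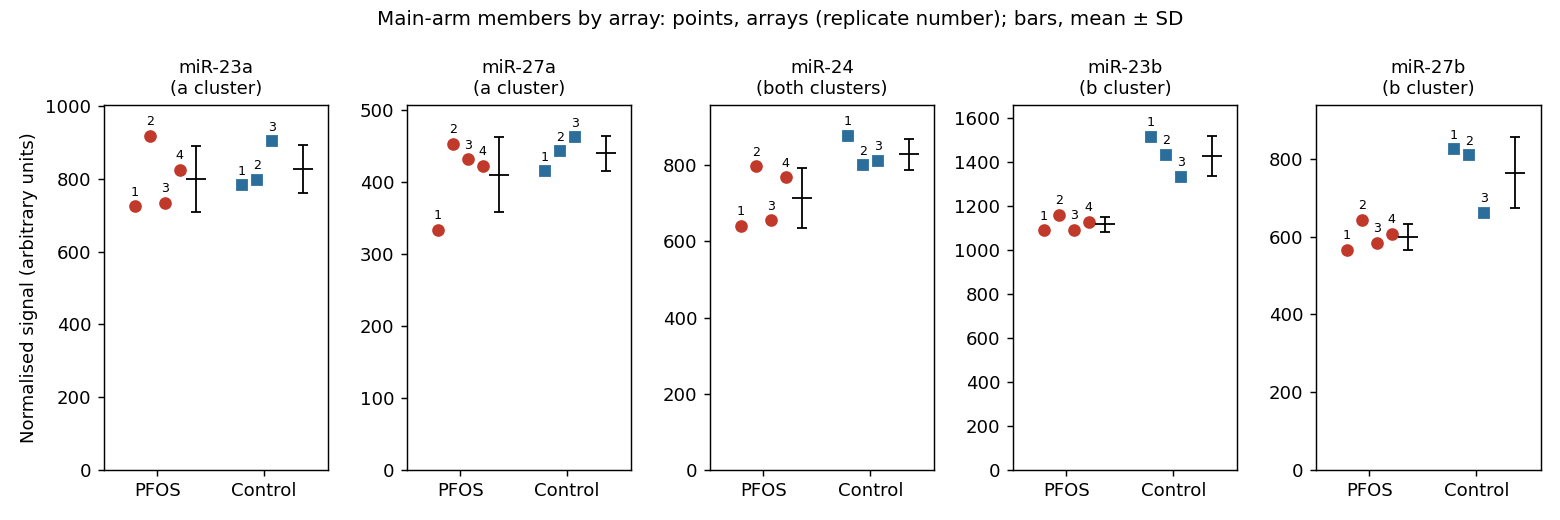
Normalised signal (arbitrary units, axes from 0) of the 5 main-arm members in PFOS livers (red circles) and Control livers (blue squares). Each point is an array with its replicate number, and the bars give the mean and SD of a group. For miR-23b the 4 PFOS arrays sit between 1090 and 1161, all below the Control arrays, while for miR-23a the groups overlap.

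Over all tested miRNAs 0 of 175 passed at an adjusted p under 0.05 (0%, limma), and at an unadjusted p under 0.05, 18 were lower (10.3%) and 15 higher (8.57%) in PFOS livers. The log2 fold change was negative for 5 of 5 main arms, with a median of -0.22, beside 57.7% negative and a median of -0.026 over all tested miRNAs. At an unadjusted p under 0.05, miR-23b and miR-27b were lower in PFOS livers, 2 of 5 main arms beside 10.3% of all tested miRNAs. PFOS values lay wholly below Control values for miR-23b, miR-27b and miR-24, 3 of 5 beside 10.3% of all tested miRNAs. The standard errors of the 5 main arms, 0.073 to 0.12, were below the median of 0.14 over all tested miRNAs. In bulk liver RNA fewer cells of a type and less of a miRNA per cell cannot be told apart.

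**Figure D2:**
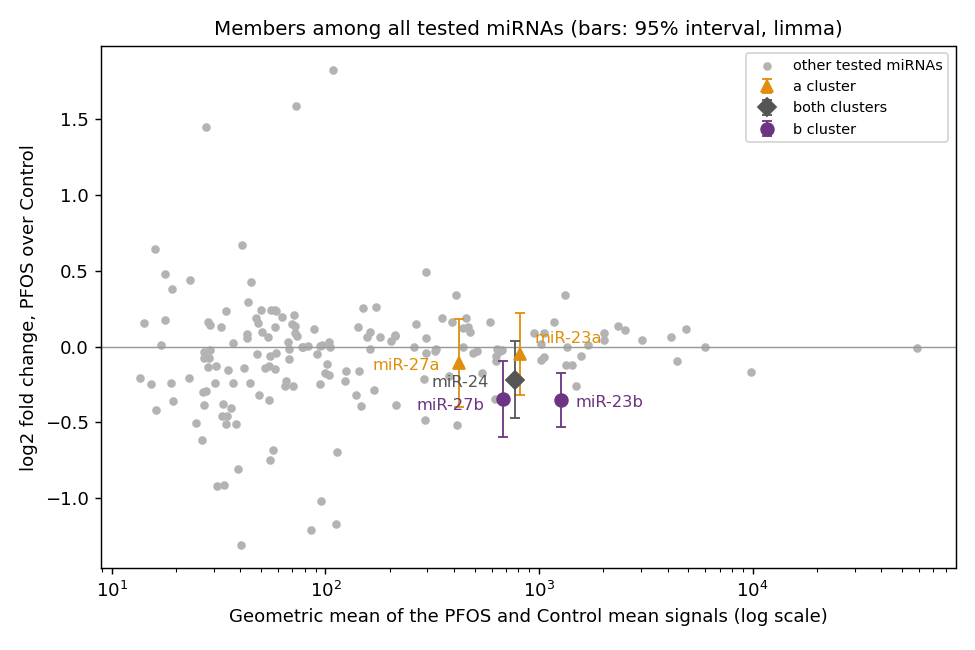
log2 fold change of PFOS over Control against the mean normalised signal (log axis) for the 175 tested miRNAs. Grey points are other miRNAs, orange triangles the a cluster, the grey diamond miR-24 and purple circles the b cluster, with 95% intervals. The intervals of miR-23b and miR-27b lie below 0 and those of the other 3 members hold 0.

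The difference between the clusters was tested as the ratio of paralogs within each array, in which a scaling common to an array cancels. The ratio compares arrays and does not say which paralog was more abundant, since probes differ in brightness. The log2 ratio of miR-23b to miR-23a was 0.59, 0.34, 0.57 and 0.45 on the PFOS arrays, against 0.95, 0.85 and 0.56 on the Control arrays. That of miR-27b to miR-27a was 0.76, 0.50, 0.44 and 0.52 on the PFOS arrays, against 0.99, 0.87 and 0.52 on the Control arrays. In both ratios Control replicates 1 and 2 were above every PFOS array, and Control replicate 3 lay within the PFOS range.

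For miR-23b over miR-23a the mean log2 ratio was 0.49 ± 0.12 (SD, n = 4) in PFOS livers and 0.79 ± 0.20 (SD, n = 3) in Control livers. The difference was -0.30 (SE 0.10, 95% interval -0.52 to -0.078), the smallest p among 38 ratios of letter paralogs on the array, and it did not pass (limma adjusted p = 0.195). The exact two-sided permutation test over 35 splits gave p = 0.0857, where 0.0286 is the smallest it can give. For miR-27b over miR-27a the mean was 0.56 ± 0.14 (SD, n = 4) in PFOS livers and 0.79 ± 0.25 (SD, n = 3) in Control livers. The difference was -0.24 (SE 0.11, 95% interval -0.49 to 0.011, limma adjusted p = 0.249, exact permutation p = 0.2). Of the 38 ratios 0 passed (0%, limma) and 7 had an unadjusted p under 0.05 (18.4%), the ratio of miR-23b to miR-23a among them. Many of the 38 ratios share a miRNA, as those with let-7e or with miR-29c among the 7 do, so they are not independent. The groups did not overlap in 5 of the 38 ratios (13.2%), and neither ratio of these clusters was one of them.

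Both cluster ratios turned on single arrays. Without Control replicate 3 they passed, at -0.41 for miR-23b over miR-23a and -0.39 for miR-27b over miR-27a (limma adjusted p = 0.0263 for both). Without PFOS replicate 1 they also passed, at -0.33 (limma adjusted p = 0.0364) and -0.31 (limma adjusted p = 0.0416). Without Control replicate 1 they were -0.21 and -0.14 and did not pass (limma adjusted p = 0.319 and 0.396). The arrays lay in 2 rows of a slide, by the positions in the names of the array scans. Within the first row, with 2 PFOS arrays and 1 Control array, the differences were -0.49 and -0.36. Within the second, with 2 of each, they were -0.19 and -0.21. miR-23b itself was -0.43 within the first row and -0.32 within the second, and miR-27b -0.45 and -0.30.

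**Figure D3:**
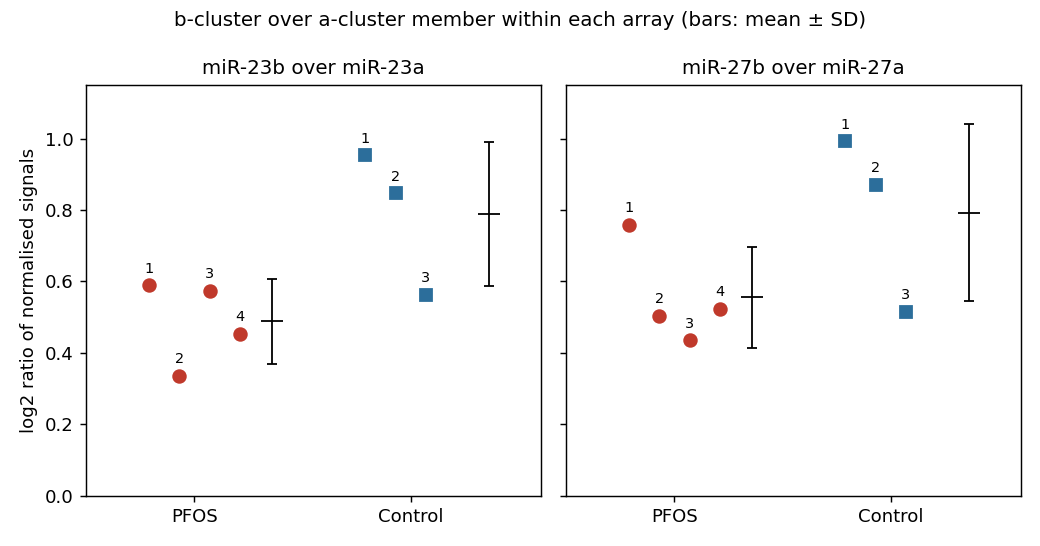
log2 ratio of the b-cluster to the a-cluster member within each array, for miR-23b over miR-23a and miR-27b over miR-27a, in PFOS livers (red circles) and Control livers (blue squares). Numbers are replicates and bars the mean and SD. Control replicates 1 and 2 lie above all PFOS arrays in both ratios, and Control replicate 3 lies among them.

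Taken as the mean of miR-23b and miR-27b less the mean of miR-23a and miR-27a on the log2 scale, the distance between the clusters was 0.67, 0.42, 0.50 and 0.49 on the PFOS arrays, against 0.97, 0.86 and 0.54 on the Control arrays. The group means of this distance were 0.52 ± 0.11 (SD, n = 4) in PFOS livers and 0.79 ± 0.22 (SD, n = 3) in Control livers. It is a description of chosen members, with no test.

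Across the arrays miR-23b and miR-27b of the b cluster ran close together, and the arms of the a cluster less so. Likeness was measured as the mean absolute difference between log2 profiles over the 7 arrays, each centred on its own mean, as a description with no test. By this measure miR-27b was the nearest of 174 other tested miRNAs to miR-23b, at 0.046, where the median distance was 0.23. miR-24 was the 3rd nearest to miR-23b at 0.091, while miR-23a ranked 33rd at 0.16. miR-27a was the 9th nearest to miR-23a at 0.085, and miR-23b ranked 68th at 0.16. miR-24 ranked 13th to miR-23a at 0.10 and 14th to miR-27a at 0.093. Profiles of bright miRNAs share the array and the loess curve at their brightness. The profiles also hold the difference between PFOS and Control arrays. Members with like log2 fold changes therefore come out near each other, and these ranks are not separate from the fold changes above.

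Outside the clusters, the 3 nearest to miR-23b were miR-122* at 0.055, miR-92a at 0.11 and miR-21 at 0.11. Of these, miR-122* is the star arm of the hepatocyte miRNA miR-122, and had a log2 fold change of -0.26 (SE 0.084, limma adjusted p = 0.166). The nearest to miR-27b were miR-122* at 0.084, miR-378 at 0.12 and miR-193 at 0.13, and the nearest to miR-24 were miR-122* at 0.051, miR-140* at 0.059 and miR-140 at 0.074. The nearest to miR-23a were miR-143, a smooth muscle and fibroblast miRNA, at 0.052, let-7e at 0.070 and miR-151 at 0.082. Those nearest to miR-27a were miR-497 at 0.038, let-7e at 0.041 and miR-195 at 0.061.

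The 6 star arms gave little or no signal. miR-23b*, miR-27b*, miR-24-1* and miR-27a* were detected on 0 of 7 arrays, by the rule used here and by the gene detection flag of the scanner software. miR-24-2* was detected on none by the rule used here and on 2 PFOS arrays by that flag. miR-23a* was the exception, detected on 2 PFOS arrays and 1 Control array by the rule and on 4 PFOS arrays and 1 Control array by the flag. Its normalised signals were 60.7, 20.1, 34.7 and 27.9 on the PFOS arrays, against 28.2, 52.6 and 18.9 on the Control arrays, which overlap. No star arm was detected widely enough to be tested, so no ratio of main to star arm could be tested for these clusters, whereas 24 such pairs could be elsewhere on the array. The signals of the star arms therefore do not divide miR-24 between its copies.

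Of 21 other miRNAs listed for lipid metabolism, in which miR-27a and miR-27b are known to act, 20 were on the array and 16 were tested. Of the 16, 0 passed (limma), 3 were lower and 2 higher in PFOS livers at an unadjusted p under 0.05 (10.3% and 8.57% of all tested miRNAs), 8 had a positive and 8 a negative log2 fold change (57.7% negative over all), and the median was -0.0023, against -0.026 over all tested miRNAs. The 3 of smallest p were miR-29c at 0.34 (SE 0.077), miR-107 at 0.34 (SE 0.092) and miR-122* at -0.26 (SE 0.084), with limma adjusted p of 0.126, 0.126 and 0.166.

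The hepatocyte markers miR-122, miR-122*, miR-192 and miR-194 were all tested, and 4 of 4 had negative log2 fold changes, beside 57.7% of all tested miRNAs. Their median was -0.11, against -0.026 over all. Of the 4, only miR-122* was lower at an unadjusted p under 0.05, beside 10.3% of all tested miRNAs. miR-122 itself had geometric means of 58407 in PFOS livers and 58816 in Control livers. Summed signals of the list overlapped, at 64045 to 66751 in PFOS livers and 65338 to 67330 in Control livers. Most of each sum was miR-122, so the sums say little of the other hepatocyte markers. Both endothelial markers, miR-126 at 0.010 (SE 0.094) and miR-126* at -0.0023 (SE 0.23), overlapped between the groups. The bile duct epithelial list stood apart, with 3 of 5 members tested (median log2 fold change 1.58, all 3 higher at an unadjusted p under 0.05, beside 8.57% of all tested miRNAs, and none past the adjusted threshold), a summed normalised signal of 322 to 570 in PFOS livers and 88.4 to 213 in Control livers, and miR-200c and miR-141 detected on no array. Of the other lists, summed signals of the stellate cell and fibroblast list (742 to 1045 in PFOS livers, 813 to 1035 in Control livers, 5 of 5 tested) overlapped between groups. So did those of the leukocyte and Kupffer cell list (758 to 1001 and 907 to 963, 4 of 5 tested), the erythroid list (442 to 1076 and 522 to 939, 2 of 2 tested) and the muscle list (46.7 to 103 and 58.6 to 105, 1 of 4 tested, with miR-1, miR-133a and miR-133b detected on no array). All sums count every list member on the array. Undetected members, as in the muscle and bile duct lists, add to them, since signals were floored at 12.1 before loess. At an unadjusted p under 0.05, 1 of 5 tested members of the stellate cell and fibroblast list was lower in PFOS livers. So was 1 of 4 of the leukocyte and Kupffer cell list, beside 10.3% of all tested miRNAs. The log2 fold change was negative for 4 and positive for 1 of the former, and negative for 2 and positive for 2 of the latter. The 2 lower members did not overlap between groups, and PFOS lay wholly below Control in 10.3% of all tested miRNAs. They were the leukocyte miRNA miR-223 at -0.23 (SE 0.087, geometric means 114 in PFOS livers and 134 in Control livers) and the fibroblast and smooth muscle miRNA miR-145 at -0.25 (SE 0.094, 14.03 in PFOS livers and 16.7 in Control livers), both with a limma adjusted p of 0.240. The values of miR-145 were near the floor. After loess miR-23b*, which was at the floor on every array, read 9.25 to 14.7 on PFOS arrays and 11.7 to 14.9 on Control arrays. The part of these cell types in the values of the clusters was not tested.

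The sign and size of single members depended on how arrays were brought to a common scale, and PFOS arrays gave more signal before scaling. Over miRNAs detected on every array, the median signal before scaling was 1.74-fold higher in PFOS than in Control livers, and the labelling spike-in, an RNA added before labelling, was 2.20-fold higher. Before any scaling the log2 differences were 0.43 for miR-23b, 0.38 for miR-27b, 0.52 for miR-24, 0.70 for miR-23a and 0.60 for miR-27a, where the median over all tested miRNAs was 0.69. The b-cluster members, miR-24 and miR-27a thus stood below that median in unscaled signal, and miR-23a stood close to it. Rescaling shifts the members and the median nearly alike, so these positions are not a separate result. Scaled to the labelling spike-in without loess, miR-23b was -0.70, miR-27b -0.75, miR-24 -0.61, miR-23a -0.44 and miR-27a -0.54. The median of all tested miRNAs was -0.44 there, and no member passed (limma). A scaling factor cancels in the ratios, which were -0.27 for miR-23b over miR-23a and -0.21 for miR-27b over miR-27a with no loess, whatever the scaling. With loess that weighted detected and undetected miRNAs alike they were -0.029 and 0.76.

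In the authors' deposited table of normalised log2 values, fitted in the same way, miR-23b passed at -0.58 (SE 0.086, limma adjusted p = 0.0245) and miR-27b at -0.50 (SE 0.054, limma adjusted p = 0.00623). They were 2 of the 9 miRNAs that passed as lower there (5.14% of those tested). In that table the log2 values of miR-23b were 9.13, 9.16, 8.84 and 8.97 on the PFOS arrays, against 9.62, 9.63 and 9.55 on the Control arrays. For miR-27b the authors' deposited table had 8.23, 8.32, 8.23 and 8.26 on the PFOS arrays, against 8.80, 8.82 and 8.67 on the Control arrays. For both, the groups were further apart than in the values recomputed from the scanner files. The other members were also more negative in the authors' deposited table, at -0.39 for miR-24, -0.30 for miR-23a and -0.30 for miR-27a. They did not pass (limma adjusted p = 0.0501, 0.285 and 0.108), though miR-24 lay at the threshold. The ratios between paralogs in the authors' deposited table, -0.27 and -0.20, were close to those from the scanner files and did not pass (limma adjusted p = 0.233 and 0.324).

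**Figure D4:**
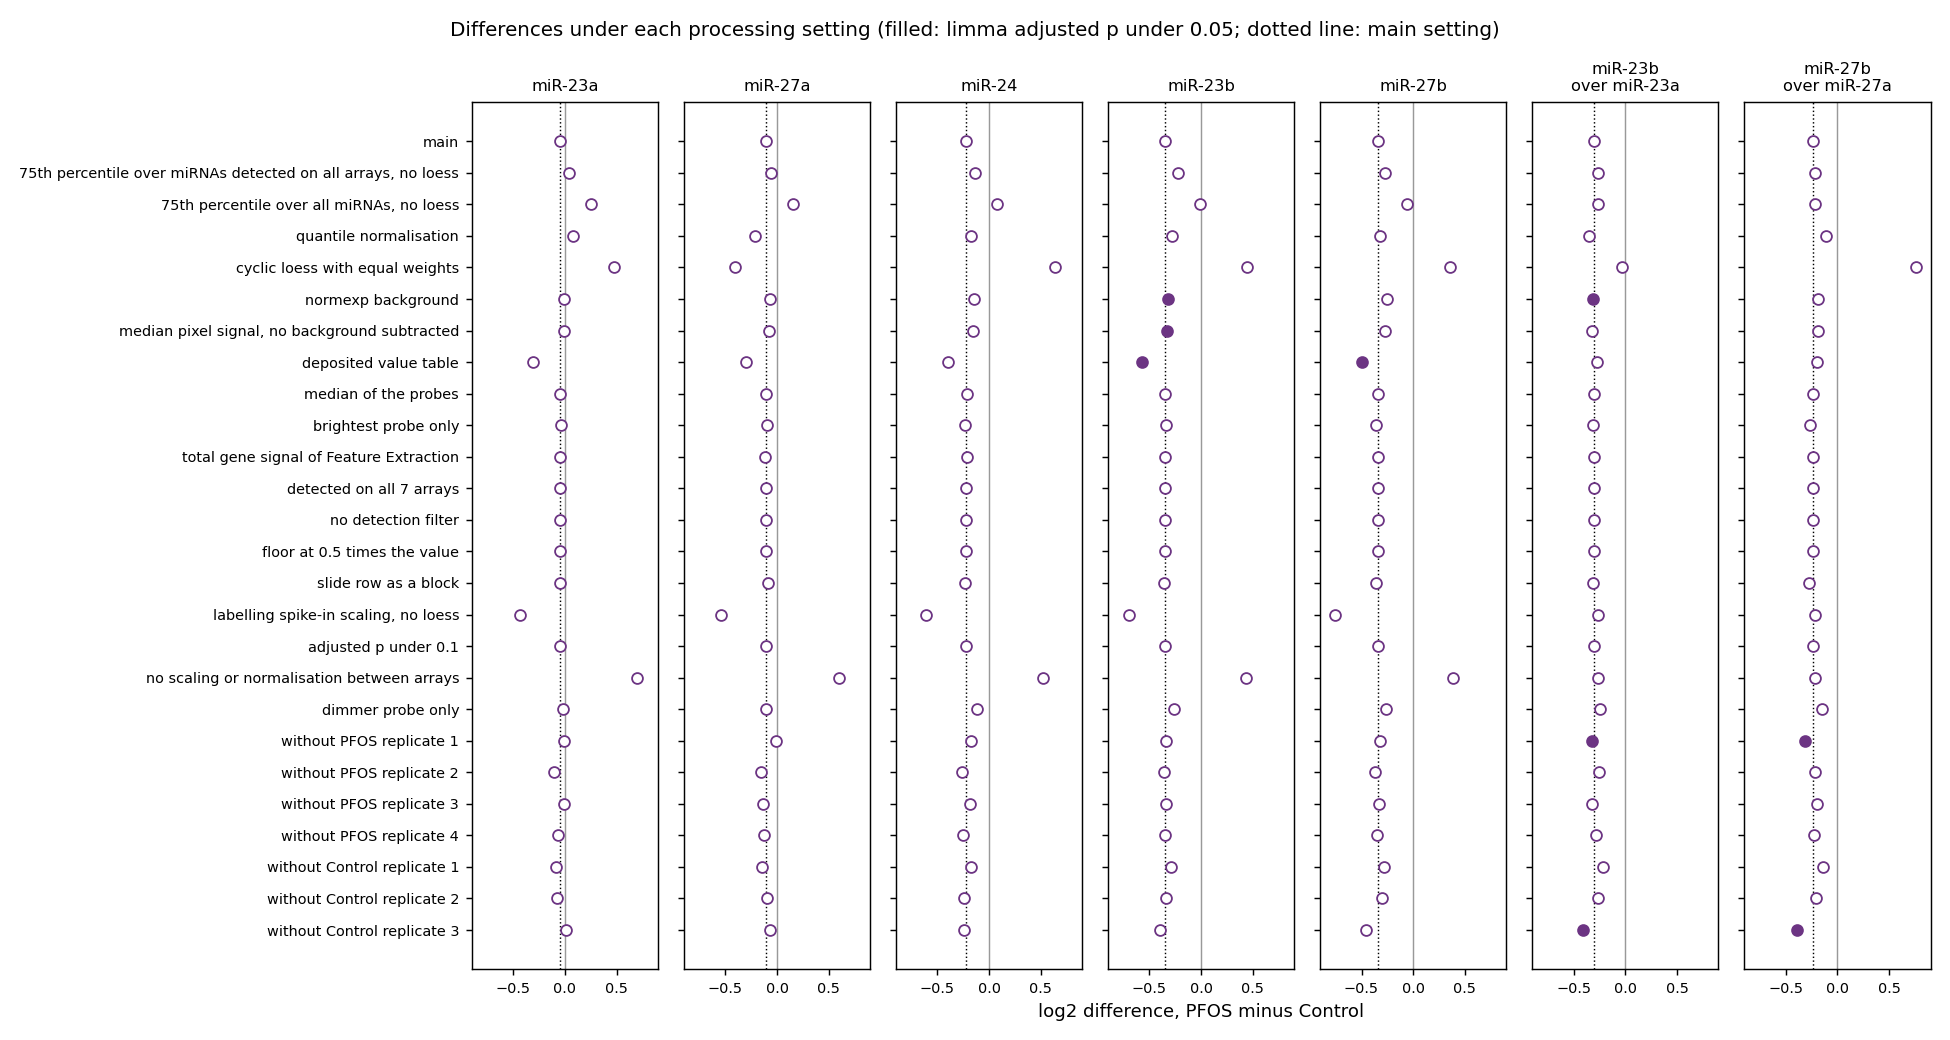
log2 difference, PFOS minus Control, of the 5 main arms and the 2 paralog ratios under each processing setting, with filled points where the limma adjusted p was under 0.05 and a dotted line at the value of the main setting. The single members shift together under settings that only rescale arrays, whereas under quantile normalisation and loess with equal weights miR-27a is more negative and the other 4 are less so, and the ratios stay between -0.41 and -0.029 for miR-23b over miR-23a, and below 0 for miR-27b over miR-27a except at 0.76 under loess with equal weights.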

How the data were processed

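Liver total RNA of 4 PFOS and 3 Control rats was hybridised to Agilent 8x15K rat miRNA arrays. The spot intensity values were deposited as scanner output, background-subtracted within each array by Feature Extraction 10.7.3.1, per the file headers. The authors' deposited table holds log2 values, normalised with cyclic lowess in R per the series' design text. For its background handling and its summary per miRNA no header or label gives a method. Its column medians were 5.48 to 5.51, and within each array its values correlated with the median pixel signal across miRNAs at r of 0.9966 to 0.9988.

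From the intensities, outlier spots were left out, spots averaged per probe and probes summed per miRNA. Signals were scaled to the 75th percentile of the 123 miRNAs detected on all arrays, floored at the 1st percentile of detected values (12.1), put on the log2 scale and normalised by cyclic loess (span 0.7, 3 iterations) weighted on those 123. Tests used limma 3.58.1 (lmFit, eBayes) in R 4.3.3 with Benjamini-Hochberg adjustment over 175 miRNAs, or over 38 paralog ratios, beside exact permutation. The threshold was an adjusted p of 0.05. Before use, the fits were tested on simulated data. The differences put into those data were larger than that of any main arm in the main setting. They do not say whether differences as small as those of the main arms would be called. Named outside the clusters were the 3 miRNAs nearest in profile to each member, and those of the lipid and cell type lists. Members and lists were chosen with earlier results of these data known. Alternatives covered scaling, normalisation, background, probe summary, detection, floor, slide row and left-out arrays. The number of arrays limits the precision, and no replicate numbers paired the animals.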

Additional observations from a re-analysis of the deposited data

Results flagged for a closer look

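Of 12 measures screened among the 4 PFOS arrays, 1 had an array far from the others. The labelling spike-in was 3970 on PFOS replicate 3, against 2456 to 2683 on the other PFOS arrays and 1258 to 1326 on Control arrays, a gap of 0.850 of the PFOS range. Chance flags about 1 in 20 such groups. None of the 5 main arms and neither paralog ratio was set apart in this way.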

How the results depend on the processing

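Over alternatives that kept all arrays, miR-23b over miR-23a ran from -0.36 to -0.029 and miR-27b over miR-27a from -0.27 to 0.76. Several of these could not move a ratio: settings that only rescale arrays all gave -0.27 and -0.21, and another threshold or detection filter leaves the ratio as it is. The causes of the changes below were not tested. Without loess miR-23a was 0.040, equal to the median of all miRNAs. With the 75th percentile over all miRNAs 3 miRNAs passed as higher, and miR-23a was 0.25, miR-24 0.079 and miR-27a 0.15 (median of all 0.25). Quantile normalisation gave 0.078 for miR-23a. Equal-weight loess gave 0.47 for miR-23a, 0.45 for miR-23b, 0.64 for miR-24, 0.35 for miR-27b, 0.76 for miR-27b over miR-27a and 0.37 for the cluster distance (median of all 0.33). With normexp background 5 miRNAs passed as higher and 1 as lower, miR-23b at -0.32 (limma adjusted p = 0.0340), and miR-23b over miR-23a passed at -0.32 (limma adjusted p = 0.0414). Median pixel signal gave 5 higher and 1 lower, miR-23b at -0.33 (limma adjusted p = 0.0438). The authors' deposited table gave 0 higher and 9 lower, with miR-23b at -0.58 and miR-27b at -0.50. Total gene signal gave 1 higher, no detection filter 1 lower, slide row as a block 3 higher and 1 lower, and spike-in scaling 8 lower (median of all -0.44). Without scaling, an alternative chosen after seeing the data, 53 passed as higher, and miR-23a was 0.70, miR-23b 0.43, miR-24 0.52, miR-27a 0.60 and miR-27b 0.38 (median of all 0.69). The dimmer probe alone, also chosen after seeing the data, gave -0.26 for both miR-23b and miR-27b.

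Leaving out 1 array at a time gave -0.11 to 0.0079 for miR-23a (positive only without Control replicate 3), and -0.40 to -0.30 for miR-23b, -0.27 to -0.17 for miR-24, -0.15 to -0.015 for miR-27a and -0.45 to -0.28 for miR-27b. It gave -0.41 to -0.21 for miR-23b over miR-23a, -0.39 to -0.14 for miR-27b over miR-27a and -0.40 to -0.17 for the cluster distance, and 0 miRNAs passed each time. No paired analysis was possible because the replicate numbers were given in accession order and pair no animals. Signal near background limits what can be said of the star arms.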
